A study of Mus musculus with 27 samples.

Results

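Pseudogenes are disabled copies or relics of genes, and this report follows CpG methylation inside those that lie clear of protein-coding genes. The class is that of the reference annotation, and whether each member is disabled in every strain was not tested. A position counted as a member when it was listed in all 27 samples, lay on an autosome inside a gene whose biotype in the RefSeq gene table of GRCm38.p6 contains the word pseudogene, and lay more than 2 kb outside the span of every protein-coding gene. By this rule 928 of the 9496 autosomal pseudogenes in the table held at least 1 position, with 6825 positions in all out of the 1692453 listed in every sample; 60 of them lie in 2 pseudogenes and count for both. Of these pseudogenes, 439 held at least 5 positions and are described gene by gene. The other 489 held fewer, 294 of them only 1 or 2, and are described by their positions.

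The DNA came from hepatocytes, which make up most of the liver, taken from females of 9 inbred mouse strains at 12 weeks of age, with 3 biological replicates a strain. The laboratory strains were NZO/HlLtJ, NOD/ShiLtJ, DBA/2J, C57BL/6J, A/J and 129S1/SvImJ, and the wild-derived strains were WSB/EiJ, PWK/PhJ and CAST/EiJ. None carried a treatment or an engineered allele and none was a control, so every comparison is among strains. Reduced representation bisulfite sequencing (RRBS) was used, which reads short stretches of the genome next to CCGG sites and gives at each cytosine the percent of reads that were methylated.

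Retrotransposed pseudogenes are DNA copies of a messenger RNA and usually arrive without a promoter, while other pseudogenes arise by duplication or by loss of function in place. Mammalian genomes keep most CpGs outside promoters and enhancers methylated, and CpG-rich promoters unmethylated. The gene table does not separate retrotransposed from duplicated copies, so the comparison of processed with unprocessed pseudogenes was not made. The class it does give, transcribed pseudogene, was compared with all others instead, a choice made after the table was seen. Of the 439 pseudogenes, 61 were of the transcribed class and 378 of the other, and 344 had only a Gm-number symbol.

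Between 2904787 and 3156965 positions were listed per sample, of which 21212 to 25133 lay in pseudogenes that meet the distance rule. Read depth is unknown, because the files hold percentages only. As a check of the cell type label, promoter windows of 4 out of 15 hepatocyte genes held shared positions, and their means lay between 0.652% (Apoe) and 6.98% (Apob). Means of the 2 out of 12 leukocyte genes with shared positions were 9.80% (Coro1a) and 40.7% (Vav1). Single samples reached 27.6% at Hnf4a and 22.2% at Apob, above the highest Coro1a sample at 13.5%. So few genes cannot decide the label, and cell purity was not tested further. The mitochondrial chromosome has another name in the C57BL/6J files than in those of the other 8 strains, and any processing step behind this and the strain itself cannot be told apart. Results were recomputed without these 3 samples.

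RRBS saw only small parts of these genes. The median pseudogene with at least 5 positions was 1532 bp long and held 9 positions, and none held more than 92. Both strands of a CpG are listed as separate positions. Of the 439 bodies, 397 lay wholly more than 2 kb from protein-coding genes, and 42 overlapped another noncoding gene.

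Sequence was on file for 1 place only where these data bear on a promoter. The RefSeq promoter table (GRCm38.p6) holds no pseudogene, and 1 of its windows covers member positions. It runs from 250 bases before to 50 after the start of the lncRNA gene Gm29998, on the plus strand at chr19:33391551-33391850, inside the transcribed pseudogene entry Rnls, the gene of the flavoprotein renalase. The window is shown because it divides Rnls into an unmethylated and a partly methylated stretch. Capitals mark the 10 of its 16 CpG dinucleotides at which the 19 listed positions lie.
Gm29998 promoter window: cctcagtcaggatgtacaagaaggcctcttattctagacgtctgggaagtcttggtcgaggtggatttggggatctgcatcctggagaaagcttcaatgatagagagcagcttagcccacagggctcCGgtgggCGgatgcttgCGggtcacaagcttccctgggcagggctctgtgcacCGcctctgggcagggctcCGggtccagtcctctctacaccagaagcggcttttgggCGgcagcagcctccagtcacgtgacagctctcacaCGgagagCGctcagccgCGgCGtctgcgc
Over its 19 positions the mean methylation was 0.648%, with samples between 0.00% and 2.42%. The other 22 positions of Rnls averaged 38.4%, and the 27 samples ranged from 28.7% to 49.6%. The stretches did not overlap in any sample, and the mean of 20.9% for the whole Rnls body thus describes neither.

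Most pseudogenes were heavily methylated. The mean over the 439 bodies was 76.9% and the median body stood at 89.5%. Bodies above 80% numbered 328 (74.7%), 66 (15.0%) lay between 20 and 80%, and 45 (10.3%) lay below 20%. The levels thus lay mainly at the methylated end with a smaller group near 0, as the distribution of body means shows. Pseudogenes with fewer than 5 positions had a median level of 91.7%.

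**Figure D1:**
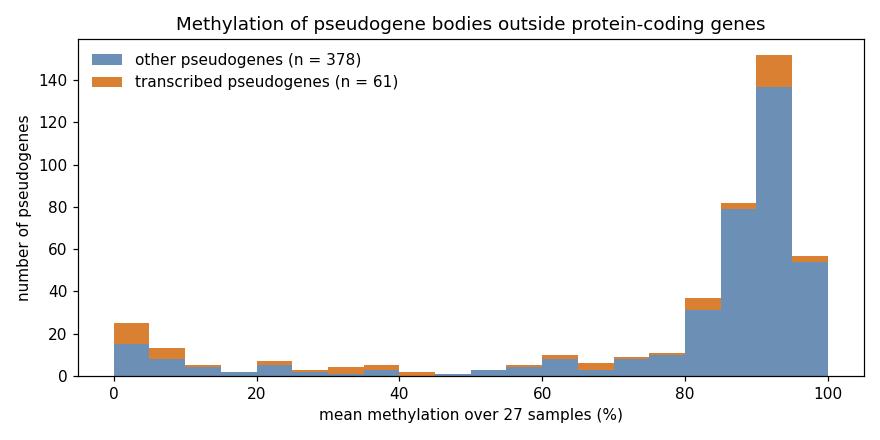
Number of pseudogenes (vertical axis) by mean methylation over 27 samples in percent (horizontal axis, bins of 5 points), for the 378 other pseudogenes (blue) stacked with the 61 transcribed pseudogenes (orange). Most bodies lie above 80%, and transcribed pseudogenes make up a larger part of the bodies below 20%.

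The most methylated bodies were Gm5917 at 97.47%, Gm5864 at 97.2% and Cyp2d36-ps, a relic of the drug-metabolising cytochrome P450 family, at 97.1%. Their strain means spanned only 3.53, 1.57 and 4.14 points. At Gm5917 the 60 positions 2 to 10 kb away averaged 0.483%, so that methylated body lies near an unmethylated stretch.

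The least methylated were 3 transcribed pseudogenes. Hyi, named for hydroxypyruvate isomerase, averaged 0.30% over 26 positions, Bambi-ps1, a copy of a BMP pseudoreceptor gene, 0.53% over 18, and Magef1 0.70% over 25. The pseudogene with the most positions, Gm2027, stood at 6.58% over 92 positions, and Gm18763 at 0.749% over 78. Rn18s-rs5, a copy of the 18S ribosomal RNA gene, held 82 positions and is described below. These 3 position-rich bodies were all below 20%.

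Bodies below 20% held a median of 18 positions against 8 for those above 80%, and 16 of 45 (35.6%) were transcribed pseudogenes against 27 of 328 (8.23%). Over the 439 bodies, Spearman's rho of the level was -0.285 with the number of positions, -0.249 with length, 0.271 with the distance to the nearest protein-coding gene and 0.083 with positions per kb. These are descriptions across genes that share the same libraries.

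Members of known families were few, and their counts of calls are to be read beside the 7.09% called among all 423 tested pseudogenes and 2.77% among all gene bodies. Of 11 ribosomal protein pseudogenes, a class made largely by retrotransposition, the median level was 94.2%, and 1, Rps10-ps1, was called different among strains by the limma test given below, and 3 passed the adjusted p, Rps10-ps1 included. The 5 olfactory and 5 vomeronasal receptor pseudogenes had medians of 89.2% and 89.8%. In limma 1 of the olfactory and 3 of the vomeronasal ones passed an adjusted p under 0.05, as they did unadjusted. Of those that passed, 0 had the span of 25 points that a call needs. An olfactory one that did not pass, Olfr280-ps1, spanned 36.8 points. Over all 423 tested pseudogenes 28.1% passed the adjusted p, and over all gene bodies 38.6%. Of 6 cytochrome P450 pseudogenes the median was 91.1%, and 1 passed an adjusted limma p under 0.05, as it did unadjusted, with 0 called for want of span. That one, Cyp4f41-ps, stood at 9.98% with strain means spanning 19.5 points, from 2.43% in WSB/EiJ to 22.0% in C57BL/6J. Of 5 zinc finger pseudogenes 1 was called, Zfp520-ps, and 4 passed the adjusted p, Zfp520-ps included, at a median level of 60.8%. The 1 HMG pseudogene, Hmgb1-rs17, stood at 90.9% and was not called. By symbol, no immunoglobulin, T cell receptor or major urinary protein pseudogene had 5 positions. Nor did any named for the metabolic enzymes searched, which were Gapdh, Ldh, Pgk, Pgam, Eno, Aldo and Pkm.

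Pseudogene bodies had a higher mean level than other positions far from protein-coding genes in all samples. The mean over bodies exceeded the mean of other autosomal positions beyond 2 kb from protein-coding genes by 16.1 ± 0.331 points (SD, n = 27), in 27 of 27 samples (two-sided sign-flip permutation test, p = 1e-05, the smallest that 100000 resamples can give). LncRNA genes lying wholly more than 2 kb from protein-coding genes had a mean body level of 64.0%. Against these the excess was 12.9 ± 0.398 points (SD, n = 27, same sign-flip permutation test, p = 1e-05). The lncRNA bodies were longer, with a median of 16153 bp against 1532 bp, and the part of length was not tested. With the 9 strain means as the unit, each difference had an exact sign-flip p of 0.00391, the smallest that 9 strains allow. These tests set a difference between fixed sets of genes against the spread among mice or strains, and not against the spread among genes. The excess over other positions sets a mean over bodies beside a mean over positions. Its size depended on how pseudogenes were averaged or chosen. Pooling all pseudogene positions, which compares positions with positions, gave 7.06 points. Bodies with at least 10 positions gave 7.94 and the median body 28.8. Taking positions at any distance outside protein-coding genes, which changes both sets compared, gave 36.2. The sign was the same in each case.

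**Figure D2:**
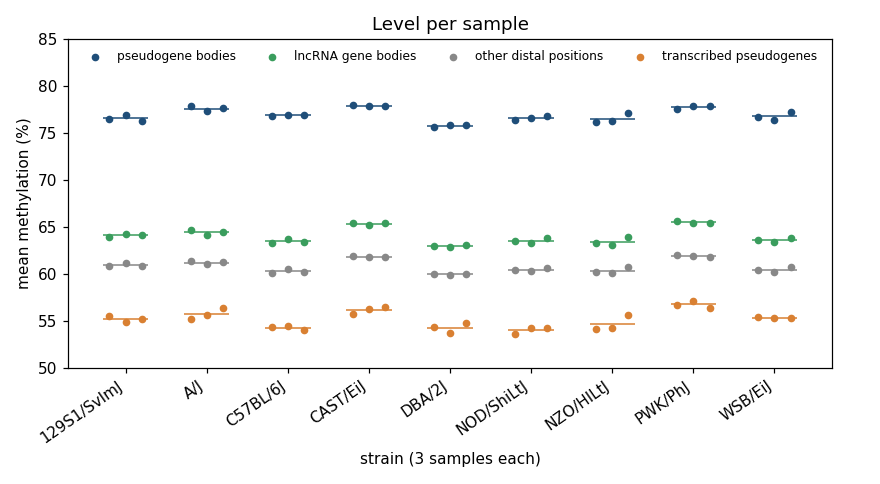
Mean methylation in percent (vertical axis, from 50 to 85) in each of 3 samples per strain (points) with the strain mean (line), for pseudogene bodies, lncRNA gene bodies, other distal positions and transcribed pseudogenes. Pseudogene bodies lie between 75.6% and 78.0% in every sample, above the other sets.

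The mean pseudogene level differed little among strains, though by more than the spread between replicates. It was 77.9 ± 0.0702% in CAST/EiJ, 77.8 ± 0.176% in PWK/PhJ, 77.6 ± 0.287% in A/J and 75.8 ± 0.134% in DBA/2J (SD, n = 3 each). The other 5 strain means lay between 76.5% and 76.9%, with neighbours in that order closer than their spread. The strains differed in a permutation test of the F statistic (F = 17.5, p = 3e-05, 100000 resamples). Other distal positions were ordered alike at the ends: 61.8% in CAST/EiJ and 61.9% in PWK/PhJ, against 59.9% in DBA/2J. The excess of pseudogenes over these positions ran from 15.6 ± 0.160 points in 129S1/SvImJ to 16.6 ± 0.203 in C57BL/6J (SD, n = 3; permutation test of F = 8.64, p = 0.00012).

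Transcribed pseudogenes were less methylated than the others. Their mean was 55.1% against 80.4%, a difference of -25.3 ± 0.731 points (SD, n = 27) that was below 0 in 27 of 27 samples and in all 9 strain means (exact two-sided sign-flip test over strains, p = 0.00391, the smallest possible). The test speaks to mice and strains only, since the same bodies are read in every sample. The class nevertheless covers the whole scale, with 16 bodies below 20%, 18 between and 27 above 80%. Oas1b, an interferon-induced gene, stood at 95.0%, and all its strain means lay between 92.4% and 97.4%. Transcribed pseudogenes were also longer, with a median of 9797 bp against 1262 bp, and held more positions, 12 against 8; the part of these in the difference was not tested.

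Strain differences at single pseudogenes were tested on the body means of all autosomal genes together, with the moderated F test of limma on a logit-like scale and Benjamini-Hochberg adjustment. A body was called when its adjusted p was under 0.05 and its strain means spanned at least 25 points. Of 423 tested pseudogenes 30 were called (7.09%), against 478 of 17277 gene bodies of all biotypes (2.77%). The share was 7.27% for lncRNA genes lying wholly more than 2 kb from protein-coding genes (139 of 1911). It was 9.62% for pseudogenes inside or within 2 kb of protein-coding genes (15 of 156) and 1.54% for protein-coding genes (196 of 12689). Thus the share of pseudogenes was near that of lncRNA genes. Pseudogene bodies held a median of 9 positions, lncRNA bodies 12 and protein-coding bodies 61, over median lengths of 1532, 16153 and 24584 bp. The part of these in the shares here and by level below was not tested. Without the span of 25 points, an adjusted p under 0.05 was reached by 119 pseudogenes (28.1%) and by 38.6% of all bodies.

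Most called bodies had intermediate means. The mean is taken over all strains, so a wide span itself moves it towards the middle, and the shares by level are a description. Of 66 pseudogenes between 20 and 80%, 23 were called (34.8%), against 5.34% of all gene bodies in that range. Below 20% 4 of 29 tested were called (13.8%, all bodies 0.834%), and above 80% 3 of 328 (0.915%, all bodies 0.616%). Most pseudogenes varied little: the median span was 7.00 points, against 3.50 for all bodies, 307 spanned less than 10, and 5 spanned at least 50. Just outside the call lay Olfr280-ps1 (span 36.8 points, limma adjusted p = 0.126) and Gm11452 (26.3 points, 0.116), both chosen for their values.

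**Figure D3:**
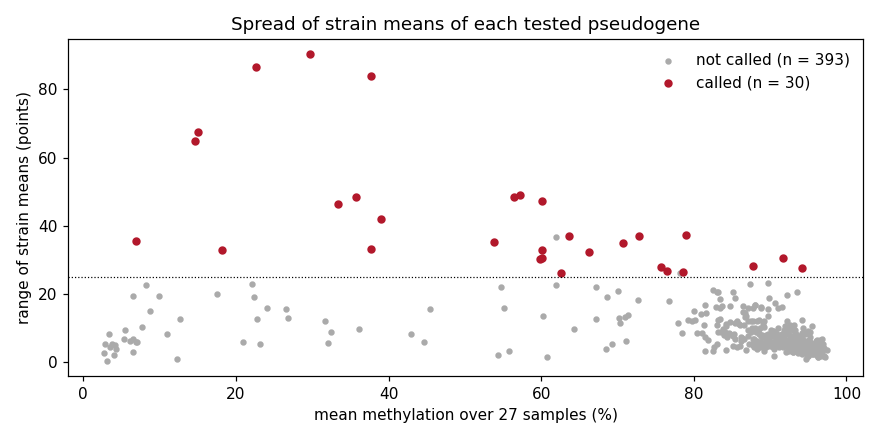
Range of the 9 strain means in points (vertical axis) against mean methylation over 27 samples in percent (horizontal axis) for the 423 tested pseudogenes, with the 30 called in red and a dotted line at 25 points. Most called bodies have means between 20 and 80%.

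Shares called were also compared at single positions. Of 5561 tested pseudogene positions 385 were called (6.92%), against 4.97% of all 704330 tested positions and 5.56% of other distal positions (10063 of 181036). The shares depended on the settings: they were 4.50%, 2.97% and 3.29% with an offset of 1 point, 4.32%, 1.49% and 3.22% with no filter on the mean, and 5.18%, 3.75% and 4.18% with a replicate block. The pseudogene share was the highest of the 3 in each case, and these differences were not tested. Rn18s-rs5, described below, held 45 of the 385 called positions. Without it the pseudogene share was 6.20%, and at 10 kb from protein-coding genes it was 5.58%. The other shares were not recomputed for these settings. The 385 calls fell in 130 of 910 pseudogenes, and 26 of the 30 called bodies held at least 1. The 489 pseudogenes with few positions contributed 49 called positions of 1065 tested (4.60%), in 36 genes.

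CAST/EiJ was the highest strain at 9 of the 30 called bodies, PWK/PhJ at 7, A/J and WSB/EiJ at 4 each, NZO/HlLtJ at 3, NOD/ShiLtJ at 2 and DBA/2J at 1. C57BL/6J was the lowest at 6, 129S1/SvImJ and PWK/PhJ at 5 each, and WSB/EiJ at 4. CAST/EiJ or PWK/PhJ was an extreme at 22 of 30 (73.3%), near the 338 of 478 (70.7%) among called gene bodies of all biotypes. Divided at the midpoint between the highest and the lowest strain mean, 7 bodies had 1 strain on the smaller side, 7 had 2, 10 had 3 and 6 had 4.

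The widest span was at Gm7177, a pseudogene on chr17:15535025-15536480, 6592 bp from Prdm9, the gene of the zinc finger protein that places meiotic recombination. Methylation over its 6 positions was 90.5%, 95.0% and 95.6% in the WSB/EiJ samples and 85.5%, 92.4% and 97.6% in those of NOD/ShiLtJ. The other 21 samples lay between 1.28% (CAST/EiJ) and 23.2% (A/J). Samples of WSB/EiJ and NOD/ShiLtJ were thus far above all others and did not overlap them. The strain means ran from 3.35 ± 0.370% in PWK/PhJ to 93.7 ± 2.80% in WSB/EiJ (SD, n = 3), a span of 90.3 points (limma, adjusted p = 2.34e-11). All 6 positions were called singly. The 3 shared positions within 2 kb differed by 77.8 points between these strains, and the 105 positions 2 to 10 kb away by -0.22 points, at a mean of 0.591%.

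Gm19056, on chr12:32929154-32930051 inside the lncRNA gene 4933406C10Rik, divided the strains differently. Its 5 positions, all within 36 bp, read 87.5%, 87.9% and 89.8% in A/J and 62.6%, 79.8% and 89.9% in 129S1/SvImJ. The other 7 strains had samples between 0.00% and 19.1%, the highest in PWK/PhJ. A/J and 129S1/SvImJ were both methylated, with no overlap with the rest. The span from C57BL/6J at 1.94 ± 1.73% to A/J at 88.4 ± 1.24% (SD, n = 3) was 86.5 points (limma, adjusted p = 3.05e-09).

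Gm6578, a transcribed pseudogene on chr6:12099518-12109580 that partly overlaps Phf14, divided the wild-derived from the laboratory strains at its 6 positions beyond 2 kb. PWK/PhJ samples read 88.6%, 93.1% and 95.2%, CAST/EiJ 77.1%, 82.1% and 86.1%, and WSB/EiJ 64.6%, 73.1% and 75.8%. The laboratory strains lay between 2.78% (C57BL/6J) and 32.2% (A/J). All 9 wild-derived samples stood above all 18 others. The span was 84.0 points between 8.33 ± 7.35% in C57BL/6J and 92.3 ± 3.40% in PWK/PhJ (SD, n = 3; limma, adjusted p = 2.78e-09).

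At 2 pseudogenes 1 strain stood at least 25 points clear of all other samples (0.473% of those tested, against 0.116% of all bodies), and in both it was CAST/EiJ. Zfp520-ps, a zinc finger pseudogene on chr16:17815176-17815863, read 69.6%, 71.3% and 79.4% there. The other 24 samples lay between 1.79% (PWK/PhJ) and 15.0% (DBA/2J), with no overlap. Its span was 67.6 points (limma, adjusted p = 7.19e-07), and 7 of its 8 positions were called. Between CAST/EiJ and the lowest strain, 129S1/SvImJ, the 44 positions 2 to 10 kb away differed by -0.17 points, at a mean of 7.85%. The 1 shared position within 2 kb differed by 22.6 points. Gm19963, on chr7:119741932-119745153, read 68.9%, 69.2% and 71.3% in CAST/EiJ and between 3.21% and 14.7% elsewhere, a span of 65.0 points (limma, adjusted p = 2.53e-10). Its body overlaps the gene Ppp1ccb, its 10 positions beyond 2 kb lie within 35 bp, and all 10 were called.

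WSB/EiJ alone was methylated at Gm6762 (chr9:35573637-35574665, 25 positions). Its samples read 30.3%, 40.9% and 43.0%, against 1.1% to 6.0% in the other 24. The groups did not overlap, and the strain means of the other 8 lay between 2.4% and 4.0%. The span was 35.6 points (limma, adjusted p = 1.08e-08), and all 25 positions were higher in WSB/EiJ than in NOD/ShiLtJ. Between these strains the 80 positions 2 to 10 kb away differed by -0.11 points, at a mean of 0.615% that leaves little room for a difference.

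Rn18s-rs5, on chr17:39846354-39848202, carries 18S ribosomal RNA sequence, which is also present in many copies in arrays elsewhere in the genome; reads of those copies cannot be told apart from its own here. A/J samples read 40.7%, 41.7% and 43.0%, and the other 24 between 6.6% (129S1/SvImJ) and 24.8% (NOD/ShiLtJ). A/J did not overlap any other strain. The span was 33.1 points (limma, adjusted p = 3.51e-09). The 492 positions within 2 kb differed by 36.6 points as well, and the 123 positions 2 to 10 kb away by 37.9. Whether these positions also carry repeated ribosomal sequence was not tested, so they cannot be taken as a separate flank.

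A single low strain was seen at Gm14327, a transcribed pseudogene on chr2:177897163-177927850. Its 7 positions lie within 95 bp, so the values describe only this small part of the body. PWK/PhJ samples read 0.00%, 1.46% and 2.29%. Samples of the other strains ranged from 12.5% (WSB/EiJ) to 59.3% (C57BL/6J), with no overlap. The strain means ran from 1.25 ± 1.16% to 47.7 ± 8.62% in NZO/HlLtJ (SD, n = 3), a span of 46.4 points (limma, adjusted p = 6.22e-06). Rps10-ps1, a ribosomal protein pseudogene, showed a smaller difference of this kind, at 72.0% for CAST/EiJ against 93.6% to 99.6% for the rest (limma, adjusted p = 3.10e-05). Without CAST/EiJ replicate 4 its span of 24.9 points was just under the limit.

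**Figure D4:**
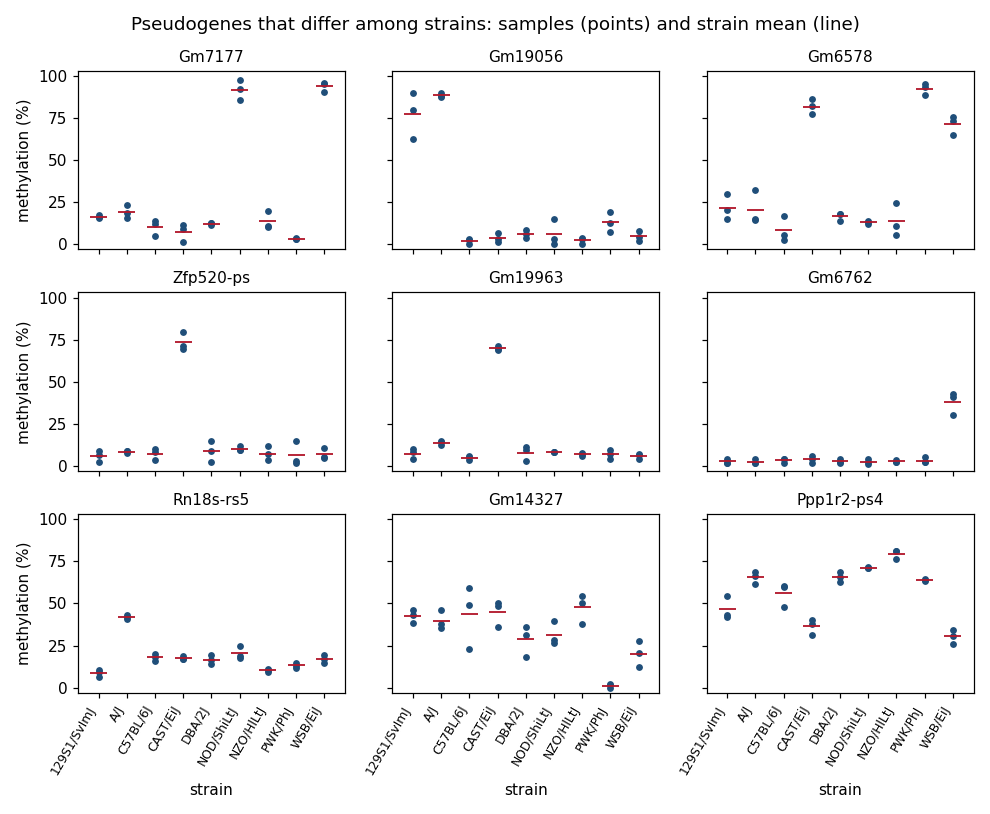
Methylation in percent (vertical axis) in each sample (points) with the strain mean (line) by strain, for 9 called pseudogenes. Gm7177, Gm19056 and Gm6578 divide the strains into separate groups, Zfp520-ps, Gm19963, Gm6762 and Rn18s-rs5 have 1 high strain, Gm14327 has 1 low strain, and Ppp1r2-ps4 has graded levels.

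Other called pseudogenes had graded levels. Ppp1r2-ps4, a copy of the gene of a protein phosphatase 1 inhibitor, ran over its 22 positions from 30.4 ± 4.09% in WSB/EiJ through 36.5 ± 4.48% in CAST/EiJ and 56.1 ± 7.12% in C57BL/6J to 79.5 ± 2.56% in NZO/HlLtJ (SD, n = 3). The samples of WSB/EiJ, 26.1% to 34.2%, lay below those of NZO/HlLtJ, 76.6% to 81.1% (limma, adjusted p = 3.85e-09), but those of the neighbours WSB/EiJ and CAST/EiJ overlapped. At Gm18943 CAST/EiJ (59.7%), C57BL/6J (53.5%) and PWK/PhJ (52.8%) had overlapping samples, and WSB/EiJ was lowest at 11.2% (limma, adjusted p = 5.60e-07). Gm7318 was above 85% in PWK/PhJ (94.1%), NZO/HlLtJ (90.1%) and CAST/EiJ (85.1%) and lowest in C57BL/6J at 56.9% (limma, adjusted p = 7.43e-08).

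Of the remaining bodies among the 20 with the widest spans, CAST/EiJ was highest at Gm12206, Gm6365, Gm5213 and Gm5228, and PWK/PhJ at Gm11560, Gm5905, Gm4799 and Gm11978. Gm16372 was highest in WSB/EiJ at 87.4% and lowest in PWK/PhJ at 50.2%. Spans of these 9 lay between 33.0 points (Gm11978) and 48.4 points (Gm12206). The weakest were Gm11978 (limma, adjusted p = 0.00921) and Gm5213 (limma, adjusted p = 0.00761), with within-strain SDs of up to 17.0 and 16.3 points. The call of Gm5213 was lost on untransformed percent (limma, adjusted p = 0.0655), with the replicate block (0.101) and without CAST/EiJ replicate 1 (0.0566). The 10 other called bodies spanned 26.2 to 32.3 points.

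How far the differences reached was seen only where RRBS covered the flanks. In the 20 widest, the positions covered spread over a median of 186 bp (35 to 1489 bp), and in 16 of 20 every position was higher in the highest strain than in the lowest. The exceptions were Gm5905, Gm7318, Gm5228 and Gm11978; at Gm5228 single positions differed by -24.5 to 92.8 points. Shared positions within 2 kb were present for 10 of the 20, and at 8 of these they differed by at least 10 points in the direction of the body, 4 of the 8 resting on 1 position. Shared positions 2 to 10 kb away were present for 15 of the 20, and at 13 of these they differed by less than 10 points between the same strains. Gm18943 (18.6 points over 4 positions) and Rn18s-rs5 differed by more. Rn18s-rs5 is counted at both distances, although its flanks may hold repeated sequence. At 6 of the 13 the flank had a mean below 10% or above 90%, which leaves little room for a difference. The strains were chosen by the body and not by the flank, which favours a larger difference in the body. Agreement among the positions of a body is favoured by the same choice, and both strands of a CpG count as positions.

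**Figure D5:**
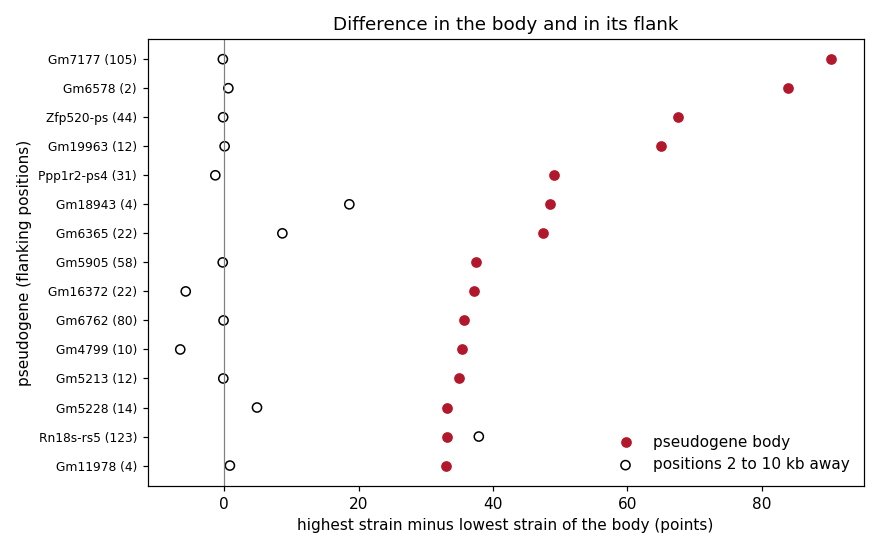
Difference in points (horizontal axis) between the highest and the lowest strain of the body, in the body (filled) and at shared positions 2 to 10 kb away (open), for 15 named pseudogenes, with the number of flanking positions in brackets. Open points lie within 10 points of 0 except at Gm18943 and Rn18s-rs5.

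Listing itself differed among strains. Of 20305 pseudogene positions present in each C57BL/6J list, 30.3% appeared in no CAST/EiJ sample, 29.3% in no PWK/PhJ sample and 17.6% in no WSB/EiJ sample, against 10.8% to 12.5% in the other strains. For other distal positions these shares were 24.7%, 23.8%, 11.6% and 7.77% to 8.38%. The members are thus the part of pseudogene sequence that all 9 strains share and cover. A variant at a CpG changes both listing and the percent read, and its part in the differences was not tested. Reads of near-identical copies can also be placed at a pseudogene, which was not tested either.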

How the data were processed

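RRBS was run on hepatocyte DNA from 27 mice. The authors deposited, per the file headers, a list of positions with percent methylation for each sample, without read counts, so neither depth nor a coverage filter is known. Per the submitters' processing notes, Trim Galore 0.6.3, Bowtie2 and Bismark 0.22 were used, with builds GRCm38 and mm10 named. The members and lists were chosen with earlier results of these data known.

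Positions listed in all 27 samples were averaged per gene span of the RefSeq table (GRCm38.p6), with at least 5 positions and a mean between 2.5 and 97.5%. Strain was tested with limma 3.58.1 (R 4.3.3) on log2((percent + 5)/(100 - percent + 5)), adjusted over all gene bodies or all positions. Levels per sample were compared by two-sided sign-flip and F permutation tests with 100000 resamples. A planned comparison of processed with unprocessed pseudogenes was not made, because the table does not separate them. Named pseudogenes are the 20 called with the widest span and separate extreme strains, the 3 lowest, 3 highest and 3 with most positions, and name families; others were chosen after their values were seen. Alternatives covered the minimum number of positions, the offset, the scale, the filters, the distance, a replicate block and each sample left out. Python 3.11.15, numpy 2.4.6, scipy 1.17.1, pandas 2.3.3 and matplotlib 3.10.9 were used.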

Additional observations from a re-analysis of the deposited data

Results flagged for a closer look

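The excess of pseudogene bodies over other distal positions differed in size among strains (permutation test of F = 8.64, p = 0.00012). It lay between 15.6 points in 129S1/SvImJ and 16.6 points in C57BL/6J, and was positive in every sample. Without the 3 C57BL/6J samples F was 6.22 (permutation test, p = 0.00169). The difference between transcribed and other pseudogenes also varied among strains (permutation test of F = 4.17, p = 0.00693). It ran from -26.3 ± 0.300 points in C57BL/6J to -24.4 ± 0.454 points in PWK/PhJ (SD, n = 3 each). Without the C57BL/6J samples F was 2.84 (permutation test, p = 0.0431). Groups of 3 samples were not searched for single outlying samples.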

How the results depend on the processing

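Over 228 alternatives of 6 summary results 220 kept the call or stayed within 1.5 times the count. Most of these alternatives left out a single sample. Only the excess over other distal positions and the difference between transcribed and other pseudogenes have a sign, and neither reversed. The number of pseudogenes called different among strains, 30 as reported, was 46 with at least 3 positions and 14 with at least 10. It was 86 with a minimum range of 10 points, 119 with no minimum range and 13 at 10 kb from protein-coding genes. These settings change which bodies are tested or what is asked of them. With no minimum range the share was 28.1%, against 38.6% of all bodies. For the other settings no share over all bodies is given, so their counts cannot be read as an excess or a lack among pseudogenes. The share of pseudogene positions called, 6.92%, was 4.50% with an offset of 1 point and 4.32% with no filter on the mean; the cause was not tested. The difference between transcribed and other pseudogenes was no longer distinct among strains with at least 3 positions (permutation test, F = 1.92, p = 0.122).

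With single samples left out, 28 to 31 pseudogenes were called and 23 of the 30 in every case. The share of positions ranged from 6.17% to 7.10%, the excess over other distal positions from 16.09 to 16.14 points, the F of the pseudogene level among strains from 14.5 to 27.8, the class difference from -25.33 to -25.24 points and its F from 3.35 to 5.26. Psenen-ps, whose C57BL/6J samples had an SD of 30.6 points, lost its call without A/J replicate 3, any CAST/EiJ sample, NOD/ShiLtJ replicate 1 or 2, or PWK/PhJ replicate 2 or 3 (limma, adjusted p from 0.0507 to 0.073), on untransformed percent (0.0632) and with the block (0.0984). Gm9266 lost it without DBA/2J replicate 2 or 4 or any PWK/PhJ sample (limma, adjusted p from 0.0509 to 0.0957). Gm8566, Gm11620 and Gm18283 spanned under 25 points (24.6, 24.3 and 24.1) without CAST/EiJ replicate 1, 129S1/SvImJ replicate 3 and DBA/2J replicate 4. Without the 3 C57BL/6J samples 30 were called, all shared with those reported, without Rn18s-rs5 29, and without bodies that overlap another noncoding gene 25, alternatives chosen after seeing the data.

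Replicate numbers did not pair the samples: deviations from strain means correlated between -0.123 and 0.148 in the 76 same-numbered pairs, and 6 exceeded 0.1. A replicate block gave 28 called pseudogenes and 5.18% of positions. No pseudogene held more than 1.35% of the positions, so leaving out those with over 5% changed nothing and was not run. The class alternatives planned for processed and unprocessed pseudogenes were not run. Depth is unknown, which limits every single-position value.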

Other observations

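Pseudogenes on the X chromosome, left out above because female cells silence 1 X copy, had another distribution. Of 50 bodies with at least 5 positions more than 2 kb from protein-coding genes, 17 (34.0%) lay between 20 and 80%, 33 lay above 80% and none lay below 20%. On the autosomes these shares were 15.0%, 74.7% and 10.3%. Neither the difference in shares nor its cause was tested. The mean over X bodies was 75.8%, with samples between 72.8% and 78.3%.

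Among low transcribed pseudogenes that spanned less than 25 points, 2 were chosen after their values were seen. Gm20472 stood at 24.2% in WSB/EiJ and 18.9% in A/J and at 1.57% to 6.78% elsewhere (limma, adjusted p = 5.85e-07). 2610005L07Rik stood at 19.4% in PWK/PhJ and 12.2% in A/J and at 0.00% in NZO/HlLtJ (limma, adjusted p = 2.27e-07).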
